A study of Mus musculus with 4 samples.

Results

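The expression of 50 cell cycle and DNA replication genes was examined in the liver of steatohepatitic mice. They were taken by gene symbol from the 24346 symbols listed in each library, and all 50 were listed. By their textbook roles, 21 act in the G1/S transition and DNA replication and 29 act in mitosis. The livers came from male C57BL/6 mice that were 8 weeks old at the start of feeding. All mice received a NASH diet, which is rich in fat, cholesterol and sucrose and holds the bile salt cholate, for 3 weeks. The control group received this diet alone (2 libraries). In the 7KC group, 7-ketocholesterol (7KC), a cholesterol oxidation product, was mixed into this diet (2 libraries). No group without the NASH diet was analysed here, so both groups share the diet that makes the liver steatohepatitic, and neither had received imiquimod. Gene expression was given as FPKM, in which the fragments of a gene are divided by its exon length and by the mapped fragments of its library. FPKM can be compared between genes, and between libraries only as shares of what each library holds.

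A cell that enters the cycle passes from G1 into S phase when cyclin D and cyclin E complexes release the E2F transcription factors from the retinoblastoma protein. E2F then drives the genes for the replicative helicase, the sliding clamp and the enzymes that supply nucleotides. Genes for mitosis are switched on later, in G2, by the MuvB complex with B-MYB and FOXM1 acting at a promoter element called the cell cycle genes homology region (CHR), often beside CCAAT boxes bound by the factor NF-Y. Hepatocytes of the adult liver are mostly quiescent and re-enter the cycle after loss of tissue or injury, and leukocytes that enter an inflamed liver can also divide. The RNA came from whole liver, so the cell type that transcribed a gene cannot be read from these values.

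A choice of promoters is shown first, because the 2 classes differed in the motifs they hold. Mitotic examples with and without these motifs are shown, but only G1/S and replication examples with an E2F match. The 9 G1/S and replication genes whose promoters lack an E2F match are not shown. The examples of this class also had the smallest limma p-values of the tested origin licensing and helicase genes described below. The printed promoters therefore do not represent how motifs and differences go together. RefSeq promoters on the mouse build GRCm38.p6, each of 300 bases from 250 before to 50 after the start site, were found for 41 of the 50 genes. No entry was found for Ccnd1, Ccne2, Mcm4, Gmnn, Ccna2, Foxm1, Aurkb, Tpx2 and Kif20a. Each sequence is written 5′ to 3′ on the strand of its gene, and capitals mark the matches to an E2F, CHR or NF-Y motif on either strand. The motifs searched were TTTCCCGC, TTTGGCGC, TTTGCCGC and TTTCGCGC for E2F, TTTGAA and TTCGAA for CHR, and CCAAT for NF-Y. TATAAA was searched as a motif that is not tied to the cell cycle. Where 2 matches to one motif share letters, as in Mcm5 and Mcm6, the capitals run together, and matches to different motifs shared letters in 1 promoter of these genes, that of Mcm7. A match describes these letters in this window and is not a tested binding site.

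The mitotic examples are Ccnb2 (chr9:70421505-70421804, minus strand), Cdc20 (chr4:118437294-118437593, minus strand), Plk1 (chr7:122159185-122159484, plus strand), Mki67 (chr7:135716330-135716629, minus strand) and Cdk1 (chr10:69352863-69353162, minus strand). They show the CHR and CCAAT letters that most of the mitotic promoters hold, and Cdk1 is the only mitotic promoter here that also holds an E2F match. Birc5 (chr11:117848987-117849286, plus strand), Nuf2 (chr1:169531415-169531714, minus strand) and Nusap1 (chr2:119618048-119618347, plus strand) are shown as mitotic promoters with none of these matches in the window.
Ccnb2: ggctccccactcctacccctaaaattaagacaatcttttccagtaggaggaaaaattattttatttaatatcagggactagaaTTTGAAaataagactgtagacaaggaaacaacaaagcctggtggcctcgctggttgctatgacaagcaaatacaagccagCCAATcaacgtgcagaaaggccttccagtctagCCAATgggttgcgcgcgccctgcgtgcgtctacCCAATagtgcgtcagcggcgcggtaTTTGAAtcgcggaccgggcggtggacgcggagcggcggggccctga
Cdc20: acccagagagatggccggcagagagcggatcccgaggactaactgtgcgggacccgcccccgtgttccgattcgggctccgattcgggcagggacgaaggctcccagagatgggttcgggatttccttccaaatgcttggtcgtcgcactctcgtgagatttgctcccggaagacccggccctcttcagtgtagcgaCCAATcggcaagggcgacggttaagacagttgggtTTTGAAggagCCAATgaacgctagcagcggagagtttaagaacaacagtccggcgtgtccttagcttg
Plk1: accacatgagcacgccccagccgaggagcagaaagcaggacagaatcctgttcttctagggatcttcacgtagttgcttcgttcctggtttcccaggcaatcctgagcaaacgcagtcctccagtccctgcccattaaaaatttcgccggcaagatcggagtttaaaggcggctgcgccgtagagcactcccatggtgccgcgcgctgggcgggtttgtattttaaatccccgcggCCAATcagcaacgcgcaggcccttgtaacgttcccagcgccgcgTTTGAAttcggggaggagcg
Mki67: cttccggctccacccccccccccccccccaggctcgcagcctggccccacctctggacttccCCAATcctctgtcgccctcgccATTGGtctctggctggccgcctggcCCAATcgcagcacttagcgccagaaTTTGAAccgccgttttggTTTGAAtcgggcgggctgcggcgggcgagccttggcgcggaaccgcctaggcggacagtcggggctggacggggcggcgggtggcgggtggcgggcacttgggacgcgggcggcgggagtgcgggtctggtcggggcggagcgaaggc
Cdk1: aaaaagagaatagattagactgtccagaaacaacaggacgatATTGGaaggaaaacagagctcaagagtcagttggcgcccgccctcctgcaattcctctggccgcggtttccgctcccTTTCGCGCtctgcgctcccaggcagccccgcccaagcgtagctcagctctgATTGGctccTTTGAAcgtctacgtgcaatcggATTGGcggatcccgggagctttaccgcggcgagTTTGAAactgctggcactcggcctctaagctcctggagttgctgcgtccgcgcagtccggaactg
Birc5: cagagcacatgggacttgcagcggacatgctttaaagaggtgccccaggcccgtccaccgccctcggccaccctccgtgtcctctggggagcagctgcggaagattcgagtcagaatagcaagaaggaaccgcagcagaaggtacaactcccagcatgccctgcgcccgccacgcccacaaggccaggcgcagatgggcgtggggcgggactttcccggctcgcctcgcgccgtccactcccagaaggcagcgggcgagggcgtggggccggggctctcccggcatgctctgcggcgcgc
Nuf2: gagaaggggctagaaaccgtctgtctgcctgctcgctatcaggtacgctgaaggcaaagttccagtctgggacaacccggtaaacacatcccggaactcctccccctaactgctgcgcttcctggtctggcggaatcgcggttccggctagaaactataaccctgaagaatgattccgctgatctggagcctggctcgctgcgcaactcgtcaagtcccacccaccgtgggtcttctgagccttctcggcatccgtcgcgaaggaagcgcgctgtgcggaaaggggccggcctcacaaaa
Nusap1: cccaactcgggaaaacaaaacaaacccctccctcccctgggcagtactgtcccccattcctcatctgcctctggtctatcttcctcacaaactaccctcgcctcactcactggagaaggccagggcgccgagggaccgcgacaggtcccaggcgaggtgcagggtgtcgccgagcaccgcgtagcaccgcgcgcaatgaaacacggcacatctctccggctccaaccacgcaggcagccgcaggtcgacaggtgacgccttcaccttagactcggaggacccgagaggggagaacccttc

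The G1/S and replication examples are Mcm5 (chr8:75109259-75109558, plus strand), Mcm6 (chr1:128359656-128359955, minus strand) and Mcm3 (chr1:20820263-20820562, minus strand), 3 subunits of the replicative helicase. They show E2F letters, and none of them holds a CHR match.
Mcm5: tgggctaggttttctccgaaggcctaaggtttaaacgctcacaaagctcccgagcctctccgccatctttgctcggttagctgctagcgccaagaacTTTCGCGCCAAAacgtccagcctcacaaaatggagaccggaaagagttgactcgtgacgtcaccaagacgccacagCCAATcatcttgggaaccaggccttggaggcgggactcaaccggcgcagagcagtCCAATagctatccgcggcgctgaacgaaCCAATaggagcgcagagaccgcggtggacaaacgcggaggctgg
Mcm6: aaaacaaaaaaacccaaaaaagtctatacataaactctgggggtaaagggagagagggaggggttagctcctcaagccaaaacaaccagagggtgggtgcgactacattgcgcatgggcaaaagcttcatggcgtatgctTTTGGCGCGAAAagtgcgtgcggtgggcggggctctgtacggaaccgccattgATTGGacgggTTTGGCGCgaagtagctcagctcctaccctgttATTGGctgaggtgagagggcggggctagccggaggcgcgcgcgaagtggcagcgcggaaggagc
Mcm3: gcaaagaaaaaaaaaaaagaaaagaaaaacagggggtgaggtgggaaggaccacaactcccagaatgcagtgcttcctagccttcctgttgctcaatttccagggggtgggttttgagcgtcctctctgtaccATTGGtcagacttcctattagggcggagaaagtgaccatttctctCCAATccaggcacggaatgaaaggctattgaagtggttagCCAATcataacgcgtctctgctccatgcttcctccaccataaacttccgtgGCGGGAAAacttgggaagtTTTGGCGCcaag

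In Cdc20, the first base of the CHR match lies at -18 from the start site, between CCAAT boxes at -53 and -8. In Plk1, which has a single match of each kind, the CCAAT box is at -14 and the CHR match at 31. Over the 24 mitotic genes with a promoter, 19 (79.2%) held a CHR match and 17 (70.8%) held both a CHR and an NF-Y match, against 21.7% and 9.65% of all 27025 genes with a promoter. Of the 17 G1/S and replication genes with a promoter, 2 (11.8%) held a CHR match. The E2F motif had the reverse pattern, with 8 of 17 G1/S and replication genes (47.1%), 1 of 24 mitotic genes (4.17%) and 2.60% of all genes. NF-Y matches were found in 52.9% of the former, 79.2% of the latter and 41.1% of all genes, and TATAAA in 0%, 4.17% and 15.7%. A gene with several start sites was counted once, with a match in any of its windows.

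**Figure D1:**
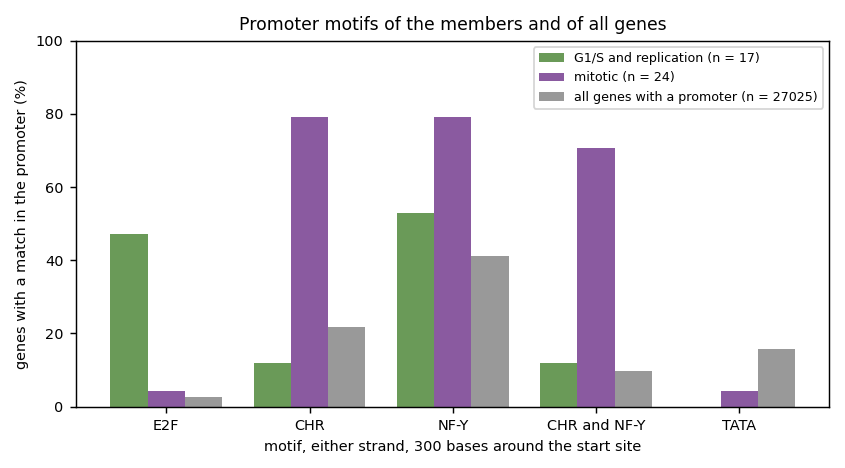
Share of genes (%) whose 300-base promoter holds each motif, for the 17 G1/S and replication genes, the 24 mitotic genes and all 27025 genes with a RefSeq promoter. The CHR bar reaches 79.2% in the mitotic genes and 11.8% in the G1/S and replication genes, and the E2F bars stand at 4.17% and 47.1%.

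The libraries had an estimated 13600000 to 17000000 mapped reads, recovered from the steps of the low FPKM values, with control replicate 1 the deepest. The 8 hepatocyte markers examined summed to between 35717 and 67077 FPKM in every library, so the defining transcripts of the labelled tissue were present. At 0.5 FPKM a gene of the median length of the cell cycle genes would have had about 22.3 reads in the shallowest library, which gives a counting error of 21.2% (coefficient of variation). Genes that reached 0.5 FPKM on average (12299, among them 43 of the 50 cell cycle genes) were tested on log2(FPKM + 0.5) with limma, a linear model that shares the variance across genes. A fold change on this scale is smaller than the ratio of the FPKM for low genes. Nothing states whether the 2 libraries of a group came from separate animals, so the p-values measure only the spread between these libraries.

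Most of the cell cycle genes had higher expression in the 7KC group, and the difference was larger for the mitotic genes. Both 7KC libraries exceeded both control libraries for 44 of the 50 genes, against 24.8% of the 16858 genes detected in any library. Of these, 34 were also at least 2-fold higher by the ratio of the group means, against a background of 9.18%. Both 7KC libraries were lower for 2 genes, Ccne2 and Tk1 (background 22.2%), neither of them by 2-fold (background 1.79%), and the groups overlapped for Ccne1, Mcm7, Gmnn and Rrm2. The median log2 difference was 1.04 over the 50 genes and 0.00 over all genes detected.

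None of the 43 tested genes passed the limma test at an adjusted p of 0.05, where 0.480% of all tested genes were called higher (59) and 0.0244% lower (3). Their adjusted p-values (Benjamini-Hochberg over all 12299 genes) lay between 0.0512 and 0.886. At an unadjusted p under 0.05, 33 of the 43 were higher (background 12.0%) and 0 were lower (background 5.81%). With 2 libraries against 2, a two-sided exact permutation test of a single gene cannot go below 0.333. The count of calls rested on the choice of libraries: without control replicate 1, 21 of the 43 were called higher (background 3.16%), and without any other single library 0 were. It also rested on scaling, because 10 of the 43 (9 mitotic genes and Mcm5) were called when libraries were scaled to equal sums (background 3.24%).

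Of the 43 tested genes, 9 had a control mean below 0.5 FPKM and passed the filter only through the 7KC group, namely Uhrf1, Foxm1, Ndc80, Nuf2, Tpx2, Kif11, Kif20a, Kif2c and Nusap1. Over all 12299 tested genes, 269 passed in this way. Just inside the filter were Ndc80 (mean 0.597 FPKM over 4 libraries), Kif2c (0.681 FPKM) and Foxm1 (0.721 FPKM), and just outside was Hells (0.438 FPKM). Counts over all 50 genes are therefore given below beside those of the tested genes.

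**Figure D2:**
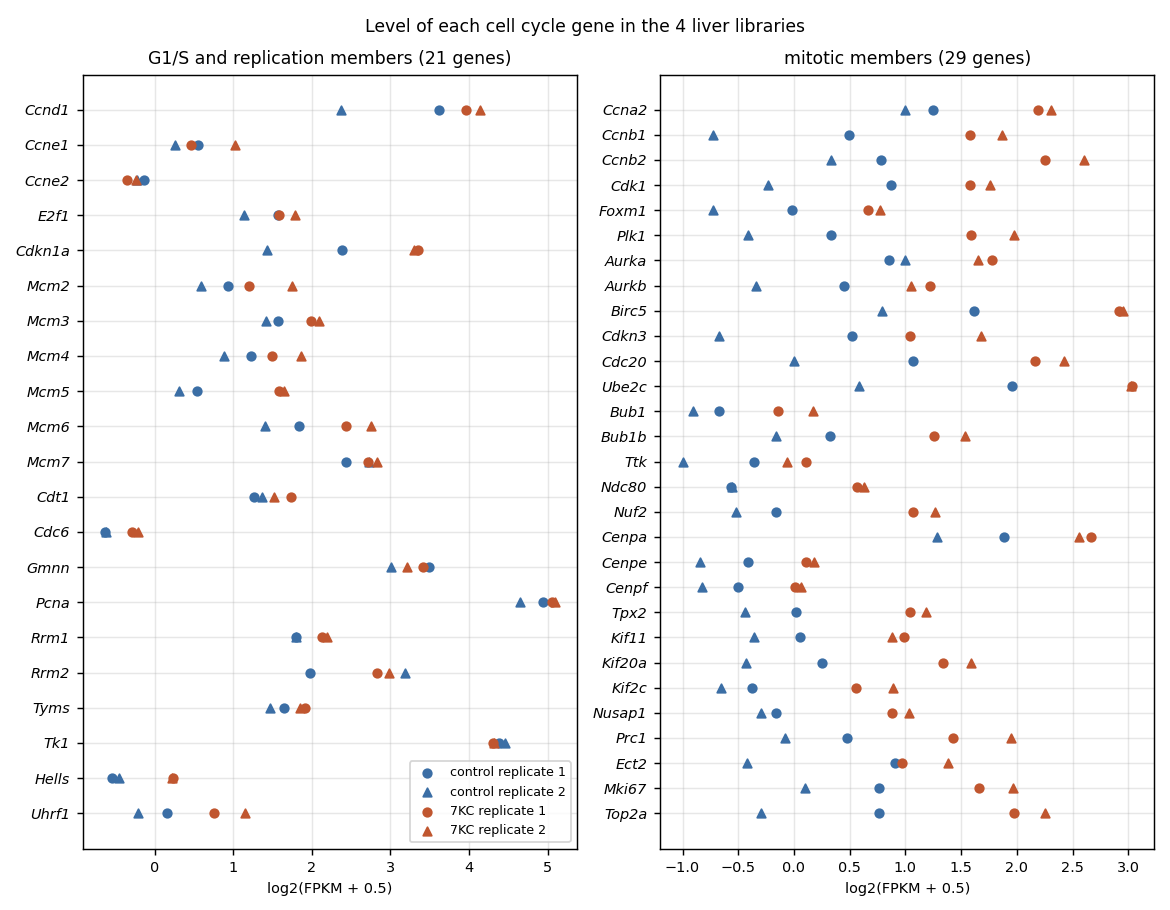
Level of each of the 50 genes on log2(FPKM + 0.5) in the 2 control and 2 7KC libraries, with 1 point per library, G1/S and replication genes on the left and mitotic genes on the right. For all 29 mitotic genes both 7KC points lie to the right of both control points, and for 15 of the 21 G1/S and replication genes they do.

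The comparison of the 2 classes was made library by library. The mitotic genes averaged 0.43 and -0.20 on log2(FPKM + 0.5) in the controls and 1.33 and 1.50 in the 7KC libraries, a difference of 1.30. The G1/S and replication genes averaged 1.67 and 1.47 in the controls and 2.02 and 2.16 in the 7KC libraries, a difference of 0.52. Both classes were thus separated between the groups, and the mitotic class started from a lower level. The mitotic average minus the G1/S and replication average was -1.24 and -1.67 in the controls and -0.70 and -0.66 in the 7KC libraries, so this gap was narrower in both 7KC libraries than in both control libraries.

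By single genes, all 29 mitotic genes were higher in both 7KC libraries and 28 of them at least 2-fold, the exception being Aurka at 1.99-fold. Of the 21 G1/S and replication genes, 15 were higher in both 7KC libraries and 6 at least 2-fold. For both classes the backgrounds of these counts were 24.8% and 9.18% of all genes detected. The median ratio of the group means was 3.94 for the mitotic and 1.44 for the G1/S and replication genes. The median log2 difference was 1.35 over the 25 tested mitotic genes and 0.35 over the 18 tested G1/S and replication genes, 1.0 apart, against -0.03 for all tested genes. Over all listed genes of the classes the medians were 1.31 and 0.36. An unadjusted limma p under 0.05 in the higher direction was reached by 24 of the 25 mitotic genes (not by Ect2). It was reached by 9 of the 18 others (background 12.0%). Of the tested genes, 8 mitotic genes but only 1 of the others (Uhrf1) passed the filter only through the 7KC group. The filter thus selected these genes partly for high 7KC values, and the 2 counts are not compared on equal terms. No p was computed for the difference between the classes, since the genes are not replicates of the diet.

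**Figure D3:**
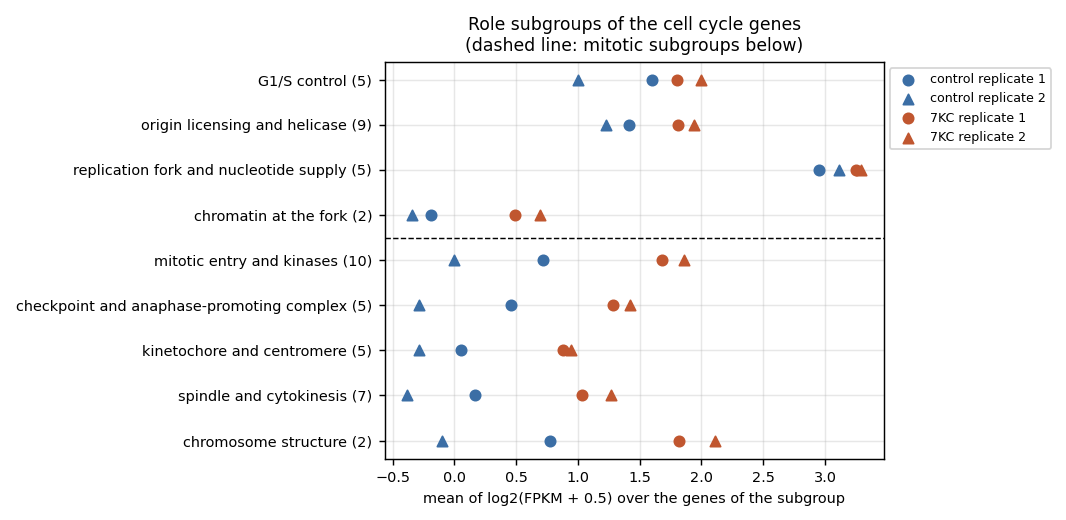
Mean of log2(FPKM + 0.5) over the genes of each of 9 role subgroups (number of genes in brackets), with 1 point per library. Both 7KC points lie to the right of both control points in every subgroup. The shift is smallest for the replication fork and nucleotide supply genes (0.24) and largest for chromosome structure (1.63).

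The G1/S control genes are the cyclins D1, E1 and E2, the transcription factor E2f1 and the cyclin-dependent kinase inhibitor Cdkn1a. Cdkn1a encodes p21, a target of p53 that restrains the cycle. Its level was 4.71 and 2.2 FPKM in the controls and 9.74 and 9.37 FPKM in the 7KC libraries, 2.76-fold by the means (log2 difference 1.42 ± 0.31 (SE), limma adjusted p = 0.112). The 7KC libraries lay close together and well above both controls, and this inhibitor had the smallest p of the subgroup. Ccnd1, the cyclin that starts G1 progression, was at 11.8 and 4.69 FPKM in the control and 15.1 and 17.1 FPKM in the 7KC libraries (1.95-fold, log2 difference 1.05 ± 0.40, adjusted p = 0.269). Its groups did not overlap, but the control libraries differed from each other more than control replicate 1 differed from the 7KC group.

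E2f1 was at 2.46 and 1.69 FPKM in the controls and 2.50 and 2.95 FPKM in the 7KC libraries (log2 difference 0.33 ± 0.20, adjusted p = 0.434). Ccne1, the cyclin E that acts at the G1/S boundary, was at 0.964 and 0.701 FPKM against 0.873 and 1.53 FPKM, so its groups overlapped (log2 difference 0.33 ± 0.26, adjusted p = 0.544). The other cyclin E gene, Ccne2, did not reach the filter and was at 0.412 and 0.358 FPKM in the controls and 0.283 and 0.347 FPKM in the 7KC libraries. It was thus the only cyclin among the 50 genes with lower values in both 7KC libraries, at the level of an estimated 10.8 to 19.7 reads per library. Ccne2 also shares 609 exon bases with Ints8 on the opposite strand, and since the strand setting of the quantification was not given, reads of the 2 genes cannot be told apart there.

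Replication origins are licensed and started by the products of 9 of the genes, and 6 of these, Mcm2 to Mcm7, form the ring of the replicative helicase. Mcm5 had the smallest p of the G1/S and replication genes, at 0.951 and 0.740 FPKM in the controls and 2.49 and 2.63 FPKM in the 7KC libraries. It was 3.03-fold higher by the means (log2 difference 1.19 ± 0.17, adjusted p = 0.0587). The spread within each group was small beside the distance between the groups. Mcm6 was at 3.08 and 2.14 FPKM against 4.90 and 6.26 FPKM (log2 difference 0.98 ± 0.21, adjusted p = 0.106), and Mcm3 at 2.47 and 2.18 FPKM against 3.47 and 3.77 FPKM (0.55 ± 0.14, adjusted p = 0.148). These 3 are the helicase genes whose promoters are printed above.

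The subunits of the ring are needed in equal numbers, yet their differences ranged from 0.19 to 1.19 on the log2 scale, with a median of 0.67. Of the 6 genes, 5 had 7KC libraries above both controls (background 24.8%) and an unadjusted limma p under 0.05 (background 12.0%). Among these were Mcm2 (0.71 ± 0.25) and Mcm4 (0.63 ± 0.21). The exception was Mcm7, at 4.91 and 6.12 FPKM in the control and 6.07 and 6.62 FPKM in the 7KC libraries (0.19 ± 0.15, adjusted p = 0.539). Mcm7 shares 321 exon bases with Ap4m1 and 64 with Cops6 on the opposite strand. Cops6 was at 58.3 to 77.8 FPKM, well above Mcm7, and at its lowest in the 7KC group. Ap4m1 was at 4.2 and 4.07 FPKM in the control and 4.1 and 4.98 FPKM in the 7KC libraries. What the shared bases contribute to the value of Mcm7 was not tested.

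The other genes of this subgroup are 2 loading factors and their inhibitor. Cdt1, which loads the helicase, was at 1.90 and 2.07 FPKM in the control and 2.82 and 2.36 FPKM in the 7KC libraries (0.31 ± 0.16, adjusted p = 0.361). Cdc6, its partner, was below the filter, at 0.147 and 0.150 FPKM against 0.319 and 0.366 FPKM, a ratio of 2.30 that rests on an estimated 9.49 to 23.2 reads per library. Geminin (Gmnn), which blocks Cdt1 after origins have fired, was at 10.7 and 7.53 FPKM in the control and 10.2 and 8.77 FPKM in the 7KC libraries. Its groups overlapped (log2 difference 0.07 ± 0.19, adjusted p = 0.886), and the sign of this difference turned without control replicate 2 (-0.17) or without 7KC replicate 1 (-0.03).

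The 5 genes of the fork and of nucleotide supply were the most abundant subgroup and the one with the smallest differences. Pcna, the sliding clamp of the DNA polymerases, had the highest level of the 50 genes, at 30.2 and 24.7 FPKM in the control and 32.9 and 33.6 FPKM in the 7KC libraries (1.21-fold, log2 difference 0.28 ± 0.13, adjusted p = 0.354). Rrm1, the large subunit of ribonucleotide reductase, was at 2.98 FPKM in both control libraries and at 3.87 and 4.07 FPKM in the 7KC libraries (0.36 ± 0.13, adjusted p = 0.241). Tyms, thymidylate synthase, was at 2.63 and 2.26 FPKM against 3.27 and 3.11 FPKM (0.33 ± 0.14, adjusted p = 0.317). All 3 were separated between the groups, each by less than 1.5-fold. Named pseudogenes, with which reads can be exchanged, are annotated for Pcna (2) and Tyms (1).

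Rrm2, the small subunit of ribonucleotide reductase that is limiting for its activity in S phase, went its own way. It was at 3.42 and 8.62 FPKM in the controls and 6.63 and 7.42 FPKM in the 7KC libraries (0.33 ± 0.39, adjusted p = 0.698). Both 7KC libraries lay between the controls, and control replicate 2, which had the lower level for 42 of the 50 genes, had the higher one here. Without control replicate 1 the log2 difference was -0.28.

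Tk1, thymidine kinase of the salvage pathway, was described because it and Ccne2 were the 2 genes lower in both 7KC libraries. Its level was 20.4 and 21.4 FPKM in the control and 19.2 and 19.4 FPKM in the 7KC libraries (log2 difference -0.11 ± 0.10, adjusted p = 0.606), a direction that turned to 0.09 when libraries were scaled to equal sums. Tk1 shares 83 exon bases with Afmid on the opposite strand, whose level was 59.9 and 66.0 FPKM in the control and 46.4 and 47.6 FPKM in the 7KC libraries. What these shared bases contribute to the value of Tk1 was not tested.

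Uhrf1 and Hells act on chromatin behind the fork, Uhrf1 by bringing the maintenance DNA methyltransferase to hemimethylated DNA and Hells as a remodeller. Uhrf1 was at 0.616 and 0.360 FPKM in the control and 1.19 and 1.72 FPKM in the 7KC libraries (2.98-fold, log2 difference 0.98 ± 0.24, adjusted p = 0.136). Hells, below the filter, was at 0.186 and 0.230 FPKM against 0.671 and 0.666 FPKM, a ratio of 3.21. Both pairs of libraries were separated by more than the spread within either group, and both ratios were nearer to those of the mitotic genes than to those of the fork genes.

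**Figure D4:**
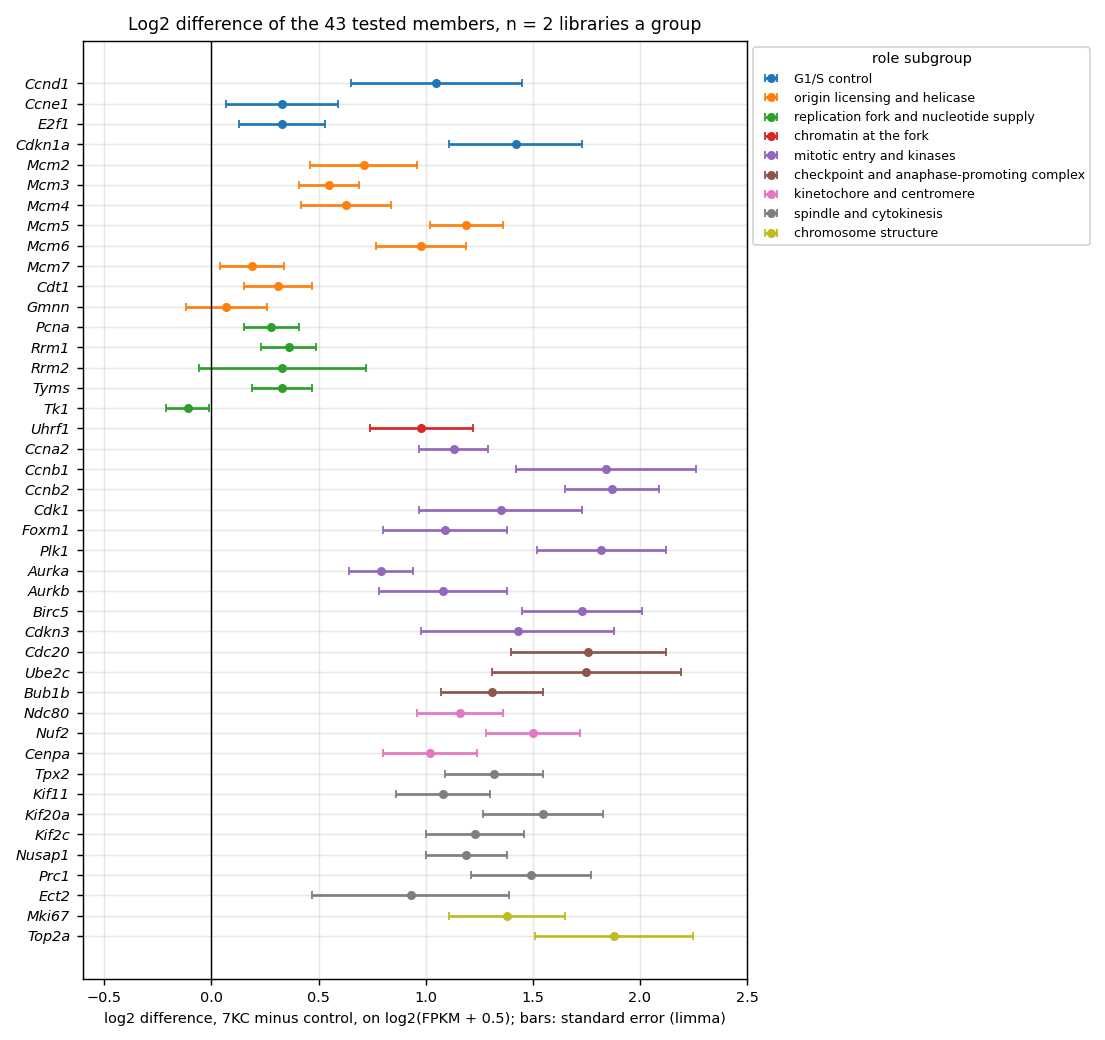
Log2 difference (7KC minus control, on log2(FPKM + 0.5)) of the 43 tested genes with its limma standard error, coloured by role subgroup, n = 2 libraries a group. The 25 mitotic genes lie between 0.79 (Aurka) and 1.88 (Top2a), and the 18 G1/S and replication genes between -0.11 (Tk1) and 1.42 (Cdkn1a).

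Genes of mitotic entry hold the 2 smallest p-values of the 50. Ccnb2, a B-type cyclin that activates the mitotic kinase Cdk1, was at 1.22 and 0.758 FPKM in the controls and 4.26 and 5.58 FPKM in the 7KC libraries. This was a 4.97-fold difference of the means (0.990 ± 0.328 against 4.92 ± 0.936 FPKM, SD, n = 2), with a log2 difference of 1.87 ± 0.22 and an adjusted p of 0.0512 (unadjusted p = 0.000310, limma). The lower 7KC library exceeded the higher control library by more than the whole range of the control group. Ccna2, cyclin A, which acts in S phase and G2, was at 1.87 and 1.49 FPKM against 4.07 and 4.46 FPKM (2.53-fold, 1.13 ± 0.16, adjusted p = 0.0553). It shares 510 exon bases with Exosc9 on the opposite strand, which was at 5.82 and 6.30 FPKM in the control and 7.18 and 6.92 FPKM in the 7KC libraries.

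Birc5 encodes survivin, a member of the chromosomal passenger complex with the kinase Aurkb. It was at 2.57 and 1.23 FPKM in the control and 7.04 and 7.26 FPKM in the 7KC libraries (3.76-fold, log2 difference 1.73 ± 0.28, adjusted p = 0.0670). The 7KC libraries agreed closely while the controls stood about a factor of 2 apart, a pattern that many mitotic genes shared. Cdkn3, a phosphatase that acts on cyclin-dependent kinases, had the largest p of the subgroup, at 0.933 and 0.129 FPKM against 1.56 and 2.70 FPKM (1.43 ± 0.45, adjusted p = 0.203). Its control replicate 2 rests on an estimated 3.10 reads.

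The remaining 6 genes of the subgroup, Ccnb1, Cdk1, Foxm1, Plk1, Aurka and Aurkb, had 7KC libraries above both controls (background 24.8%). Their log2 differences ran from 0.79 (Aurka) to 1.84 (Ccnb1). Foxm1, the transcription factor of this programme, had a log2 difference of 1.09 ± 0.29 (adjusted p = 0.158), and Cdk1 one of 1.35 ± 0.38 (adjusted p = 0.173). Ccnb1 was at 0.103 FPKM in control replicate 2, an estimated 3.23 reads, and at 0.909, 2.48 and 3.15 FPKM in the other libraries. Its fold therefore rests on few reads in the control group, and pseudogenes are annotated for Ccnb1 (1) and Ccnb2 (1).

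Of the 5 genes of the spindle checkpoint and the anaphase-promoting complex, 3 were tested. Bub1b, the checkpoint protein BubR1, was at 0.754 and 0.395 FPKM in the controls and 1.89 and 2.39 FPKM in the 7KC libraries (3.72-fold, log2 difference 1.31 ± 0.24, adjusted p = 0.0790). Cdc20, the activator that the checkpoint holds back, was at 1.59 and 0.503 FPKM against 3.97 and 4.85 FPKM (4.22-fold, 1.76 ± 0.36, adjusted p = 0.10). Ube2c, the ubiquitin-conjugating enzyme of the complex, was at 3.39 and 1.0 FPKM against 7.68 and 7.62 FPKM (3.48-fold, 1.75 ± 0.44, adjusted p = 0.139). Inhibitor and activator were thus higher together in the 7KC group, and Ube2c had the highest 7KC mean of the mitotic genes.

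The checkpoint kinases Bub1 and Ttk were below the filter. Bub1 was at 0.126 and 0.0349 FPKM in the control and 0.404 and 0.628 FPKM in the 7KC libraries, and its control libraries rest on an estimated 6.94 and 1.55 reads. Ttk was listed at 0.280 FPKM in control replicate 1, at 0 in control replicate 2, and at 0.575 and 0.457 FPKM in the 7KC libraries. Neither gene was tested, and in both every 7KC value exceeded every control value.

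Of the 5 kinetochore and centromere genes, Ndc80 and Nuf2 encode partners in the complex that binds microtubules. Nuf2 was at 0.396 and 0.197 FPKM in the controls and 1.59 and 1.90 FPKM in the 7KC libraries (5.88-fold, log2 difference 1.50 ± 0.22, adjusted p = 0.0596). Ndc80 was at 0.175 and 0.181 FPKM against 0.984 and 1.05 FPKM (5.72-fold, 1.16 ± 0.20, adjusted p = 0.0704). The partners thus had nearly the same ratio, at levels where the added 0.5 FPKM shrinks the log2 difference. Both passed the filter only through the 7KC group.

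Cenpa, the histone H3 variant of centromeres, was at 3.20 and 1.94 FPKM in the control and 5.85 and 5.37 FPKM in the 7KC libraries (2.19-fold, 1.02 ± 0.22, adjusted p = 0.111). Cenpe, a kinetochore motor, was below the filter, at 0.251 and 0.0567 FPKM against 0.581 and 0.634 FPKM. Cenpf, also below the filter, was at 0.207 and 0.0658 FPKM against 0.504 and 0.547 FPKM. All 5 genes of this subgroup were at least 2-fold higher without overlap (background 9.18%), and Cenpa, the most abundant, had the smallest ratio.

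Spindle and cytokinesis genes numbered 7, all tested and all at least 2-fold higher in the 7KC group without overlap (background 9.18%). Of these, 5 (Tpx2, Kif11, Kif20a, Kif2c and Nusap1) had a control mean under 0.5 FPKM and passed the filter only through the 7KC group. Nusap1, which bundles microtubules, was at 0.394 and 0.314 FPKM in the control and 1.34 and 1.55 FPKM in the 7KC libraries (4.09-fold, log2 difference 1.19 ± 0.19, adjusted p = 0.0637). Tpx2, the activator of the kinase Aurka at the spindle, was at 0.513 and 0.236 FPKM against 1.56 and 1.77 FPKM (4.44-fold, 1.32 ± 0.23, adjusted p = 0.0741). Its client Aurka itself was at 1.31 and 1.49 FPKM against 2.93 and 2.65 FPKM, the smallest ratio of the 29 mitotic genes. Aurka was also 1 of only 2 mitotic genes that were not lower in control replicate 2 than in control replicate 1, the other being Ndc80.

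Kif20a, a kinesin of the central spindle, was at 0.693 and 0.242 FPKM in the control and 2.03 and 2.50 FPKM in the 7KC libraries (4.84-fold, 1.55 ± 0.28, adjusted p = 0.0774). It shares 1271 exon bases with Cdc23 on the opposite strand, which was at 2.91 and 2.99 FPKM in the control and 3.51 and 3.34 FPKM in the 7KC libraries. Ect2, which activates RhoA for the cleavage furrow, had the largest p of the 25 tested mitotic genes, at 1.38 and 0.245 FPKM against 1.46 and 2.10 FPKM (0.93 ± 0.46, adjusted p = 0.360). Its control replicate 1 lay close to 7KC replicate 1, so the groups were barely apart. The other 3 genes, the kinesins Kif11 and Kif2c and the midzone protein Prc1, had log2 differences of 1.08, 1.23 and 1.49. Exons shared with a gene on the opposite strand, with the same limit as for Ccne2, are also annotated for Prc1, Nusap1, Cdc20, Ube2c, Plk1, Ccnd1 and Cdkn1a.

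Mki67 and Top2a are the usual marks of cycling cells in tissue. Mki67, which encodes the Ki-67 antigen, was at 1.20 and 0.568 FPKM in the control and 2.67 and 3.40 FPKM in the 7KC libraries (3.43-fold, log2 difference 1.38 ± 0.27, adjusted p = 0.0934). Top2a, topoisomerase II alpha, which untangles sister chromatids, was at 1.20 and 0.316 FPKM against 3.44 and 4.27 FPKM (5.08-fold, 1.88 ± 0.37, adjusted p = 0.0934). Top2a had the largest log2 difference of the 43 tested genes. In both genes the lower 7KC library was at more than 2 times the higher control library.

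The promoter motifs printed above were set beside these differences, over all genes with a promoter. The 8 G1/S and replication genes with an E2F match had a median log2 difference of 0.64 (0.19 to 1.19), and the 9 without one had a median of 0.33 (-0.11 to 1.42). The ranges overlapped widely, with Cdkn1a, which has no E2F match here, at the top. Among the mitotic genes, the 19 with a CHR match had a median of 1.31 (0.70 to 1.88) and the 5 without, Ccnb1, Birc5, Nuf2, Cenpe and Nusap1, a median of 1.50 (0.78 to 1.84). Within the mitotic class the presence of the CHR letters thus did not go with a larger difference.

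The libraries of a group differed in a common direction. Control replicate 2 was below control replicate 1 for 42 of the 50 genes, and for 27 of the 29 mitotic genes, with a median ratio between the 2 libraries of 2.52 over the mitotic and 1.22 over the G1/S and replication genes. In the 7KC group, replicate 2 was above replicate 1 for 39 of the 50 genes, with median ratios of 1.16 over the mitotic and 1.09 over the other genes. The mitotic genes therefore varied together among the controls as well, by less than they differed between the groups.

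Cell type markers were examined beside these genes, and none of them passed the limma test at an adjusted p of 0.05. At an unadjusted p under 0.05, 5 of 5 leukocyte and 7 of 8 monocyte and macrophage markers were higher (background 12.0%). So were 9 of 9 tested T and NK cell, 2 of 5 Kupffer cell, 1 of 3 tested B cell and 1 of 2 tested neutrophil markers. Lower were 1 of 8 hepatocyte, 2 of 3 tested erythroid and 1 of 5 stellate cell markers (background 5.81%). The summed level of the 29 mitotic genes was 29.7 and 13.4 FPKM in the controls and 71.4 and 82.0 FPKM in the 7KC libraries, a ratio of 3.56. The 5 leukocyte markers (Ptprc, Cd52, Cd53, Laptm5 and Coro1a) summed to 223 and 131 FPKM against 437 and 485 FPKM, a ratio of 2.60, with 5 of 5 higher without overlap (background 24.8%). Both sums were lower in control replicate 2 than in control replicate 1. So were the sums of the other marker lists, hepatocytes included, except those of Kupffer cells and endothelial cells. The hepatocyte sum followed its most abundant marker, Alb, at 41547 FPKM in control replicate 1 and 25202 FPKM in control replicate 2. Tat and Hnf4a were also lower in control replicate 2, but Ttr, Apoa1, Cps1, Cyp2e1 and Serpina1a were higher there. Monocyte and macrophage markers summed to 614 and 377 FPKM against 1142 and 1800 FPKM, with 7 of 8 higher without overlap. T and NK cell markers summed to 21 and 14.8 FPKM against 54.5 and 44.6 FPKM, with 10 of 10 higher without overlap. These 3 lists thus had ratios from 2.60 to 2.97, above the 1.33 of the G1/S and replication genes and below that of the mitotic genes. Such sums rest mostly on abundant genes, such as Lyz2 and Cd52 (control means 429 and 115 FPKM). The median ratio over single genes was 2.46 for leukocyte, 3.13 for monocyte and macrophage and 2.86 for T and NK cell markers. It was 1.44 for the G1/S and replication genes and 3.94 for the mitotic genes.

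Other marker lists had smaller ratios or lower levels in the 7KC group. Hepatocyte markers summed to 67077 and 56631 FPKM in the controls and 47779 and 35717 FPKM in the 7KC libraries, a ratio of 0.675, with 7 of 8 lower without overlap (background 22.2%). The ratio was 1.46 for Kupffer cells, with 3 of 5 markers higher and 1 lower without overlap, 1.43 for B cells, with 1 of 4 higher, and 1.43 for neutrophils, with 1 of 4 higher and 1 lower. For B cells and neutrophils these counts are at the background. The plasma cell sum had a ratio of 0.861 but was mostly Sdc1, and the median ratio of its 3 markers was 0.487, with overlap in each. The ratio was 0.737 for erythroid markers, of which Hbb-bs was at 0.00396 to 0.00413 FPKM. Cholangiocyte, endothelial and stellate cell markers had ratios of 1.04, 1.02 and 0.905. In whole liver, more cells of a type and more RNA per cell cannot be told apart, and the part of any cell type in the cell cycle gene levels was not tested.

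**Figure D5:**
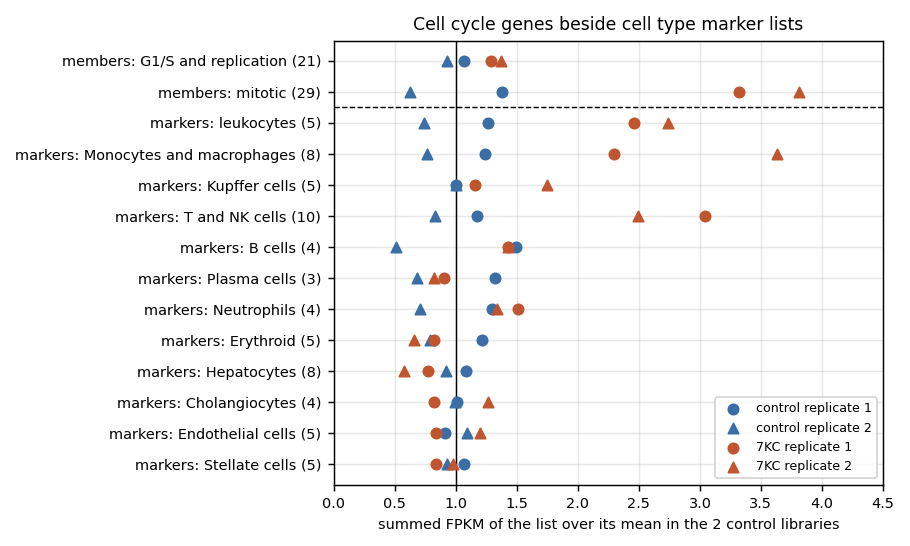
Summed FPKM of the 2 classes of cell cycle genes (above the dashed line) and of 12 cell type marker lists, each divided by its mean in the 2 control libraries, with 1 point per library. The mitotic genes stand at 3.32 and 3.81 in the 7KC libraries, beside 2.46 and 2.74 for the leukocyte markers and 0.772 and 0.577 for the hepatocyte markers.

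A wider list of 152 other genes of the cell cycle, replication and p53 response was examined in the same way. All were listed, 122 were tested and 0 passed at an adjusted p of 0.05. At an unadjusted p under 0.05, 45 were higher (background 12.0%) and 1 was lower (background 5.81%). Of the 122, 16 had a control mean under 0.5 FPKM and passed the filter only through the 7KC group. Both 7KC libraries were above both controls for 98 of the 152 genes (background 24.8%) and below them for 7 (background 22.2%). At least 2-fold higher without overlap were 57 genes (background 9.18%). The median log2 difference was 0.38 over all 152 genes and 1.04 over the 50 cell cycle genes described so far.

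The split by role was also seen in this list, which shares no gene with the 50. It was measured in the same 4 libraries and chosen with earlier results of these data known, so it gives no independent support. Of 57 further mitotic genes, 49 were higher in both 7KC libraries and 42 at least 2-fold (backgrounds 24.8% and 9.18%), with a median log2 difference of 0.69 over all 57. Of the 36 tested, 12 had a control mean under 0.5 FPKM and passed the filter only through the 7KC group. Cdca3, which triggers the entry into mitosis, was at 1.82 and 1.01 FPKM in the control and 6.42 and 6.55 FPKM in the 7KC libraries (1.90 ± 0.23, adjusted p = 0.0512). Pbk, a mitotic kinase, was at 0.404 and 0.301 FPKM against 1.72 and 1.86 FPKM (1.43 ± 0.18, adjusted p = 0.0523), and it passed the filter only through the 7KC group. Both had 7KC libraries that nearly coincided.

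Of 15 genes of replication initiation, 4 were higher in both 7KC libraries and 1 at least 2-fold, shares near those of all detected genes (24.8% and 9.18%), with a median log2 difference of 0.05. Gins2, of the helicase activator GINS, was at 1.27 and 1.31 FPKM against 2.11 and 2.88 FPKM (0.73 ± 0.19, adjusted p = 0.142), and Dbf4, which activates the kinase Cdc7, at 1.56 and 0.838 FPKM against 1.95 and 2.78 FPKM (0.77 ± 0.27, adjusted p = 0.244). Of 28 fork genes, 16 were higher in both 7KC libraries and 6 at least 2-fold, with a median of 0.30. The smallest p-values there were those of enzymes of Okazaki fragment maturation, the nuclease Fen1 (1.75 and 1.78 FPKM against 3.78 and 3.27 FPKM, 0.83 ± 0.15, adjusted p = 0.0744) and the ligase Lig1 (1.15 and 0.923 FPKM against 2.21 and 2.40 FPKM, 0.87 ± 0.17, adjusted p = 0.0897). The share of separated genes was above the background of 24.8% in the fork list (16 of 28) and near it in the initiation list.

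Among 38 regulators, 22 were higher in both 7KC libraries (background 24.8%) and 5 at least 2-fold (background 9.18%), the latter a share close to the background. The median log2 difference over all 38 was 0.30. Cdkn2a, which encodes the inhibitor p16 and the p53 activator ARF, was at 0.273 and 0.201 FPKM in the control and 0.797 and 1.65 FPKM in the 7KC libraries (5.17-fold, 1.18 ± 0.30, adjusted p = 0.141), and it too passed the filter only through the 7KC group. Ccnf, cyclin F, a part of a ubiquitin ligase that degrades cell cycle proteins, was at 8.35 and 9.51 FPKM in the control and 5.87 and 6.13 FPKM in the 7KC libraries (-0.53 ± 0.12, adjusted p = 0.122). It was the only one of the 122 tested genes with an unadjusted p under 0.05 in the lower direction.

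Of 14 other p53 targets, chosen for comparison with Cdkn1a, 7 were higher in both 7KC libraries (background 24.8%) and 7 overlapped. At least 2-fold higher were 3 of them (background 9.18%). The median log2 difference over all 14 was 0.26, against 1.42 for Cdkn1a. Phlda3 was at 1.29 and 0.917 FPKM against 2.02 and 2.47 FPKM (0.78 ± 0.20, adjusted p = 0.142), and Pmaip1, which encodes the pro-apoptotic protein Noxa, at 1.45 and 0.824 FPKM against 1.90 and 2.74 FPKM (0.80 ± 0.26, adjusted p = 0.223). No adjusted p in this class passed the threshold.

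Orc3, Gins4, E2f5, Cenpl and Cdca7 of the wider list were also lower in both 7KC libraries, with log2 differences from -0.36 (Cdca7) to -0.12 (Orc3 and E2f5). Their adjusted p-values were between 0.338 and 0.666, and the direction of Orc3, Gins4 and E2f5 turned when libraries were scaled to equal sums. Cdca7 was at 1.29 and 1.24 FPKM against 0.911 and 0.837 FPKM. None of these differences reached 2-fold.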

How the data were processed

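RNA sequencing of 4 mouse liver libraries, 2 per group, was analysed, and the labels gave the groups. The authors made stranded mRNA libraries, sequenced them single-end on an Illumina HiSeq instrument, mapped the reads to mm10 and deposited 1 FPKM value per gene symbol and library. The submitters' processing notes name TopHat2 2.1.1, Bowtie2 2.2.8, SAMtools 0.1.18 and Cuffdiff 2.2.1, and the methods of the study give other versions for some of them. The annotation and the settings for strand and multi-mapped reads were not given in the sources used here. FPKM are relative to all mapped fragments of a library, so a change in abundant genes moves all others.

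Because FPKM are not counts, count models were left out. Genes that averaged at least 0.5 FPKM were tested on log2(FPKM + 0.5) with limma 3.58.1 in R 4.3.3 (empirical Bayes with a mean trend, group as the only term, 2 residual degrees of freedom), with Benjamini-Hochberg adjustment over all 12299 genes and a threshold of 0.05. Where groups do not overlap, both values of one group exceed both of the other.

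Mapped reads were estimated from the steps of low values with GENCODE transcript lengths on the same build. In each library 73.4% to 77.8% of low values came within 0.1 of whole reads, where chance gives 20.0%. Reads per gene assume the longest transcript and are upper estimates. They cover counting error only.

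The genes and lists were chosen with earlier results of these data known. Values per library are given for Mki67, Pcna, Ccnd1 and Cdkn1a, for the 3 genes with the smallest p and the 1 with the largest in each role subgroup of at least 4 genes (every gene of smaller subgroups), for genes below the filter and, from the wider list, for the 2 with the smallest p per class and those lower without overlap, of which 1 is not reported here. Mcm7, Cdt1, Tk1, Ccnb1 and Aurka were added after their values were seen. Alternatives were other pseudocounts, filters, scalings and priors, leaving out each library, and a replicate block.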

Additional observations from a re-analysis of the deposited data

How the results depend on the processing

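The count of the 43 tested cell cycle genes called higher was 0 in the reported analysis. It was 1 with a pseudocount of 1 FPKM and 1 with scaling by the median ratio (Ccnb2 in both), 10 with libraries scaled to equal sums, and 0 to 21 over the analyses that leave out 1 library, where a group of 1 is assumed to vary like the other. For the wider list, 0 became 2 with a pseudocount of 1 FPKM, 6 with equal sums, 1 with the median ratio, 1 with a constant prior variance, and 0 to 9 when 1 library was left out. Its 57 genes at least 2-fold higher became 37 with quantile normalization, and its 0 at least 2-fold lower became 0 to 2 when 1 library was left out. The median log2 difference of the cell cycle genes (1.09) was 1.54 with a pseudocount of 0.1 FPKM, 0.85 with 1 FPKM and 0.86 to 1.33 when 1 library was left out. For the mitotic genes (1.35) it was 1.94 with a pseudocount of 0.1 FPKM, 1.05 with 1 FPKM and 1.09 to 1.68 when 1 library was left out. The gap between the classes (1.0) was 1.52 with a pseudocount of 0.1 FPKM and 0.74 with 1 FPKM. It was 0.86 with quantile normalization and 0.70 to 1.17 when 1 library was left out. The median of the G1/S and replication genes (0.35) was 0.53 with equal sums, a scaling that took the median over all genes from -0.03 to 0.16, and 0.39 to 0.52 when 1 library was left out. Directions turned for Gmnn (-0.17 without control replicate 2 and -0.03 without 7KC replicate 1, with up to 0.31 without control replicate 1), for Rrm2 (-0.28 without control replicate 1, with up to 0.94 without control replicate 2) and, with equal sums, for Tk1 (0.09), Orc3 (0.06), Gins4 (0.01) and E2f5 (0.06). In 711 recomputed values of single named genes the direction and the side of the threshold were kept, and in 42 a gene passed that had not.

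The labels do not say that replicate numbers pair the libraries, and deviations of libraries with the same number correlated at -0.141. With the replicate number as a block, 0 cell cycle genes and 0 genes of the wider list were called. With the numbers crossed, a pairing chosen after seeing the data, 18 and 8 were called. The causes of these differences were not tested. With 2 libraries a group and few reads for many mitotic genes in the controls, small differences were not detectable.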
